A study of Homo sapiens with 12 samples.

Results

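The 2 isogenic CAL62 lines of this series carry a doxycycline-inducible promoter that drives either the mature miRNA hsa-miR-139-5p (the miR-139 line) or a scrambled control that targets no gene (the scrambled line). CAL62 was derived from an anaplastic, that is undifferentiated, carcinoma of the thyroid. Each line was sampled without doxycycline and after 96 h in 1 µg/ml of it, and polyA RNA of 3 libraries per group was sequenced. The columns of the deposited expression table carry the tag C, NE or TR, with each tag once in each of the 4 groups. The values compared here are those of the 4 libraries tagged C and the 4 libraries tagged TR, which are 8 of 12, and the 4 NE libraries were left out. What the tags stand for is not given in the labels. The series was described as repeated 3 times, but the labels do not tie a tag to a repeat, do not say that libraries came from separate cultures, and do not say whether a line is a single clone. The p-values below therefore rest on how far these libraries spread, and that spread may be technical. Both arms share the cell line, the construct, the culture medium and, within each of the 4 pairs, the treatment, so the tag is the only labelled difference.

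Levels are FPKM (fragments per length of transcript and per depth of the library), which allow levels of different genes to be set side by side. Differences are TR minus C on log2(FPKM + 1), taken within each group and averaged over the 4 groups. On this scale the change of a gene with low values comes out too small. Of 37471 genes in the table, the 9840 with a mean of at least 1 FPKM over the 8 libraries were tested with limma, and a gene is called where its Benjamini-Hochberg adjusted p is at most 0.05. The mean was taken over both tags, so a gene with a mean under 1 FPKM in 1 tag could pass through the other. CST1, BMF, SMAD6 and ESAM passed in this way through TR, and ADAMTS1 and DUSP8 through C. Values of a gene are given throughout in the order miR-139 line untreated, miR-139 line with doxycycline, scrambled line untreated, scrambled line with doxycycline. The libraries held between 9803 and 9884 genes at 1 FPKM or more, and mitochondrially encoded mRNAs took between 10.7% and 12.3% of the summed FPKM. The steps between low values put the depth of the 8 libraries at 0.72 to 1.497 times that of the untreated C library of the miR-139 line, with both ends of that range in TR. The number of reads is unknown, so no counting interval is given. Treated cells of the miR-139 line had less HNRNPF, the splicing regulator that the series' design names as reduced by the miRNA, in both tags: 193, 96.7, 191 and 198 FPKM in C and 184, 85.9, 188 and 184 in TR. The tag itself did not move it past the threshold (−0.09, adjusted p = 0.25).

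Several programs that mammalian cells tune to their surroundings are described below. ATF4 is a transcription factor whose mRNA is translated more when amino acids are short or when the endoplasmic reticulum is stressed, and it activates genes for amino acid uptake, amino acid synthesis and tRNA charging. TGF-beta signalling raises the secretion of extracellular matrix and of proteins that hold and release the ligand itself. YAP, a co-activator that works through the TEAD factors, activates genes of growth and adhesion unless Hippo kinases keep it out of the nucleus.

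TR and C libraries differed widely. Of the 9840 genes tested, 1146 were called higher in TR (11.6%) and 1142 lower (11.6%). Of these 2288, 2251 had the same sign in all 4 groups, which the call itself favours. Among all 9840, called or not, 2105 were higher and 2212 lower in all 4 groups. Most differences were small: 334 called genes were higher and 270 lower by at least 0.5 (log2), and 36 and 21 by at least 1. The median over all tested genes was −0.01. Counts of called members in the lists below are to be read beside these shares of 11.6% in each direction. Most genes named below were picked for a large difference or after their values were seen. That their C and TR libraries often do not overlap is thus a description, and the share of such genes among all tested was not counted. In the sum of squares of all tested genes, 46.7% went with the tag, 26.8% with the group and 26.6% with neither. Across genes, the differences of any pair of groups had Pearson's r between 0.35 (miR-139 line with doxycycline and scrambled line untreated) and 0.63 (both groups of the miR-139 line), as a description, since genes are not independent. The count changed when 1 pair of libraries was left out. It was 1095 and 1457 without the untreated and the treated pair of the miR-139 line. Without the untreated and the treated pair of the scrambled line it was 2311 and 951. Such fits also have fewer residual degrees of freedom, so a call lost in them need not mean a smaller difference. LDHA, for example, was 0.46 with all pairs and 0.49 without the treated pair of the scrambled line, where its call was lost. With no filter on low values, 780 of 19568 genes were called, and the matrix, YAP, glycolysis and interferon lists below then had 6 higher, 5 lower, 4 higher and 3 higher members.

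Genes of the amino acid and ATF4 list were lower in TR. Besides enzymes, transporters and tRNA synthetases, the list holds ATF4 itself, other transcription factors and stress effectors. Of 35 listed genes, 28 were in the table and 27 were tested, of which 25 were called lower and 0 higher. The median difference was −0.75, beside −0.01 over all tested genes. By group it was −0.73 in untreated and −0.35 in treated miR-139 cells, and −1.11 and −0.73 in scrambled cells. The exceptions were CTH, which makes cysteine from cystathionine (−0.45, adjusted p = 0.119), and ALDH18A1, an enzyme of proline synthesis (−0.14, adjusted p = 0.106). The count was 8 with no filter on low values, and 19 to 25 when any 1 pair of libraries was left out. It was 25 after a trend on transcript length, described further on, was removed.

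**Figure D1:**
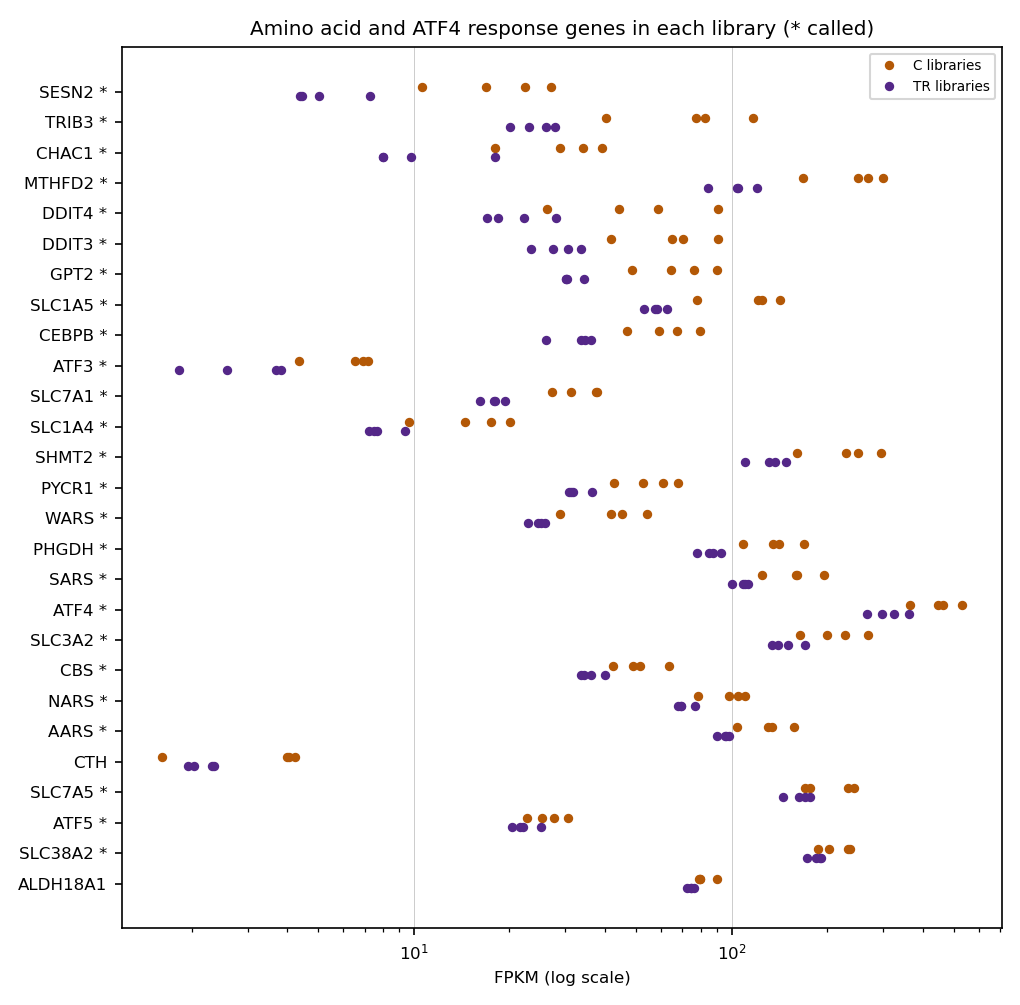
FPKM, on a log scale, of the 27 tested members of the amino acid and ATF4 list in the 4 C libraries (brown) and the 4 TR libraries (purple), ordered by the difference, with called genes starred. TRIB3 spans 40.4 to 117 FPKM in C and 20.1 to 27.7 in TR.

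ATF4 itself was 463, 364, 531 and 446 FPKM in C and 363, 325, 267 and 298 in TR. The lowest C library, from treated cells of the miR-139 line, only just exceeded the highest TR library, from untreated cells of that line (−0.52, SE 0.12, adjusted p = 0.0169, and 0.06999 without the treated pair of the scrambled line). CEBPB, a leucine zipper factor that pairs with ATF4, was lower too, at 67.2, 46.8, 79.5 and 58.9 FPKM in C and 36, 34.5, 26 and 33.5 in TR (−0.92, adjusted p = 0.00485). DDIT3, which encodes the stress factor CHOP, was 65.1, 41.7, 90.8 and 70.5 FPKM in C and 33.5, 30.5, 23.3 and 27.4 in TR. Its groups of libraries did not overlap (−1.16, adjusted p = 0.00505). ATF3, a repressor of the same family, was 6.54, 4.36, 6.92 and 7.17 FPKM in C and 3.83, 2.57, 1.82 and 3.68 in TR (−0.88, adjusted p = 0.00581).

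Feedback and stress effectors of this response were among the largest falls. SESN2, a leucine sensor that restrains the growth kinase mTORC1, was 22.3, 10.6, 27 and 16.9 FPKM in C and 7.27, 5.05, 4.44 and 4.38 in TR. No TR library reached the lowest C library (−1.63, SE 0.19, adjusted p = 0.00129). TRIB3, a pseudokinase that inhibits ATF4 and AKT, was 82.4, 40.4, 117 and 77.4 FPKM in C and 27.7, 23, 20.1 and 26 in TR (−1.59, adjusted p = 0.00218). CHAC1, an enzyme that breaks down glutathione, was 34.2, 18, 39.2 and 28.8 FPKM in C and 18, 8.002, 7.98 and 9.81 in TR. Here the highest TR library, from untreated cells of the miR-139 line, met the lowest C library (−1.40, adjusted p = 0.00168). DDIT4, another inhibitor of mTORC1, was 58.8, 26.3, 90.4 and 44.1 FPKM in C and 28.1, 18.4, 17 and 22.2 in TR and overlapped in the same way (−1.21, adjusted p = 0.00972). BBC3, which encodes the death protein PUMA and is known as a target of p53 and of this response, was 12.2, 6.86, 11.5 and 9.2 FPKM in C and 5.01, 4.97, 4.6 and 5.02 in TR (−0.86, adjusted p = 0.00376).

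Enzymes of the serine, one-carbon and proline routes were lower as well. MTHFD2, a mitochondrial enzyme of folate metabolism, was 269, 168, 299 and 250.4 FPKM in C and 120.3, 105, 84.2 and 104 in TR (−1.23, adjusted p = 0.00144). SHMT2, which feeds it with one-carbon units from serine, was 229, 160.4, 296 and 249 FPKM in C and 138, 111, 131 and 149 in TR (−0.79, adjusted p = 0.00144). PHGDH, the first enzyme of serine synthesis, was 141, 109, 169 and 135 FPKM in C and 92.5, 85, 77.8 and 87.2 in TR (−0.67, adjusted p = 0.00404). For all of these the C and TR libraries were apart, with the smallest gap in treated cells of the miR-139 line. PYCR1, an enzyme of proline synthesis, differed by −0.75, and GPT2, a mitochondrial alanine aminotransferase, by −1.10. PCK2, the mitochondrial enzyme that makes phosphoenolpyruvate, is on no list and was among the 15 largest falls, at 47.6, 29.8, 61.9 and 47.9 FPKM in C and 22.6, 19.1, 17.6 and 22 in TR (−1.13, adjusted p = 0.00211).

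Transporters and tRNA synthetases completed the group. SLC1A5, which imports glutamine, was 124, 78, 142 and 121 FPKM in C and 62.6, 53.1, 58.3 and 57.5 in TR (−0.96, adjusted p = 0.00103). SLC7A1, an importer of arginine and lysine, was 37.7, 27.2, 37.3 and 31.2 FPKM in C and 17.8, 16.1, 19.4 and 18 in TR, and differed little between groups (−0.86, SE 0.07, adjusted p = 0.000693). SLC1A4, which carries serine and alanine, differed by −0.84. The synthetases for tryptophan, serine and asparagine, WARS, SARS and NARS, differed by −0.73, −0.55 and −0.45, and all C libraries exceeded all TR libraries in each of them. Of the light and heavy chains of the leucine exchanger, SLC7A5 and SLC3A2 (−0.32 and −0.52), each overlapped between tags, and the calls were lost without the treated pair of the scrambled line (adjusted p = 0.0743 and 0.058) and, for SLC7A5, without the untreated pair of the miR-139 line (adjusted p = 0.083).

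The short element TGATGNAA is the composite site at which ATF4 and a C/EBP partner bind DNA, so it was looked for on both strands in the 250 bases before each annotated RefSeq start (GRCh38.p14). It lay in 4 of 39 promoters of 23 matched list members (10.3%). Over the promoters of tested genes it lay in 147 of 10074 (1.46%), and over all promoters of the reference in 1104 of 35116 (3.14%). Promoters of all genes called lower held it in 33 of 1237 cases (2.67%), and those of genes called higher in 16 of 1295 (1.24%). These shares are descriptions, and a match is not evidence of binding. The 4 stretches are shown since their genes fell together, each 60 bases on the gene's own strand, 5′ to 3′, with the element or its reverse complement in capitals. They lie at chr15:40953236-40953295 (plus strand, CHAC1), chr19:46784878-46784937 (minus strand, SLC1A5), chr1:212565190-212565249 (plus strand, ATF3) and chr16:70289660-70289719 (minus strand, AARS, named AARS1 in the reference).
CHAC1: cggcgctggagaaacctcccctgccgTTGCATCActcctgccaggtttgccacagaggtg
SLC1A5: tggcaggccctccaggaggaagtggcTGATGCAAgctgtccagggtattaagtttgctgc
ATF3: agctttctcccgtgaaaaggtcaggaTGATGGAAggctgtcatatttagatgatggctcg
AARS: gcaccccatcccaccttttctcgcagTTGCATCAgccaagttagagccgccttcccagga
CHAC1 and AARS hold the same 8 letters, in reverse orientation, at 209 and 187 bases before the start. In SLC1A5 the element runs forward at 97 bases before the start, and in ATF3 at 191. CHAC1, SLC1A5 and ATF3 fell by 1.40, 0.96 and 0.88 on the log2 scale. The difference of AARS, the alanine tRNA synthetase, was −0.45 (adjusted p = 0.0154, and 0.0553 or 0.0618 without the untreated pair of the miR-139 line or the treated pair of the scrambled line).

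Stress of the endoplasmic reticulum, which also feeds into ATF4, gave a mixed picture. Of 14 tested members, 2 were higher, 3 lower and 9 not called, beside 11.6% of all tested genes in each direction. Their median was −0.03. XBP1, the factor that drives the unfolded protein response, was 95.5, 59.2, 106 and 91.1 FPKM in C and 59.7, 54.3, 40.4 and 52.4 in TR (−0.74, adjusted p = 0.0137, and 0.0519 without the treated pair of the scrambled line). CRELD2, a secreted chaperone, moved the other way, at 26.2, 25.8, 27.8 and 26.1 FPKM in C and 36.9, 34.5, 33.3 and 33.6 in TR (0.37, adjusted p = 0.00526). Without the treated pair of the scrambled line 0 members were called lower.

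Extracellular matrix genes were higher in TR more often than lower. Of 50 listed genes, 34 were in the table and 23 tested, with 12 higher, 2 lower and 9 not called, and a median of 0.22. THBS1, thrombospondin 1, which activates latent TGF-beta, was 2.13, 2.75, 2.27 and 1.92 FPKM in C and 11.7, 13, 10.5 and 11 in TR. The difference was nearly the same in each group and had the smallest adjusted p of all genes described here (1.94, SE 0.09, adjusted p = 8.54e-05). COL1A1, a chain of type I collagen, was 47.7, 58.4, 33.2 and 34.7 FPKM in C and 89.7, 96.7, 100.4 and 83.7 in TR (1.11, adjusted p = 0.00113). FN1, fibronectin, was 289.9, 272, 204 and 126 FPKM in C and 438, 574, 308 and 312 in TR. The lowest TR library was only just above the highest C library, but each TR library exceeded the C library of its own group (0.89, adjusted p = 0.0021).

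The microfibril genes FBN1 and MFAP2 rose to a like degree. FBN1, fibrillin 1, was 5.34, 5.51, 5.25 and 5.09 FPKM in C and 8.62, 10.3, 10.8 and 9.12 in TR (0.76, adjusted p = 0.0013). MFAP2, a protein that binds fibrillin, was 10.2, 9.12, 11.1 and 7.71 FPKM in C and 18.3, 19.8, 14.9 and 14.3 in TR (0.76, adjusted p = 0.00239). Of the laminins, the basement membrane chains, LAMA5 (0.84) and LAMB3 (0.51) rose. The type IV collagens of the same membrane were not called (COL4A1 −0.05 and COL4A2 −0.18). OLFML2B, a secreted matrix protein outside the list, was 9.64, 7.998, 6.9 and 4.85 FPKM in C and 23.8, 26.2, 21.2 and 23.8 in TR (1.60, adjusted p = 0.000612).

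**Figure D2:**
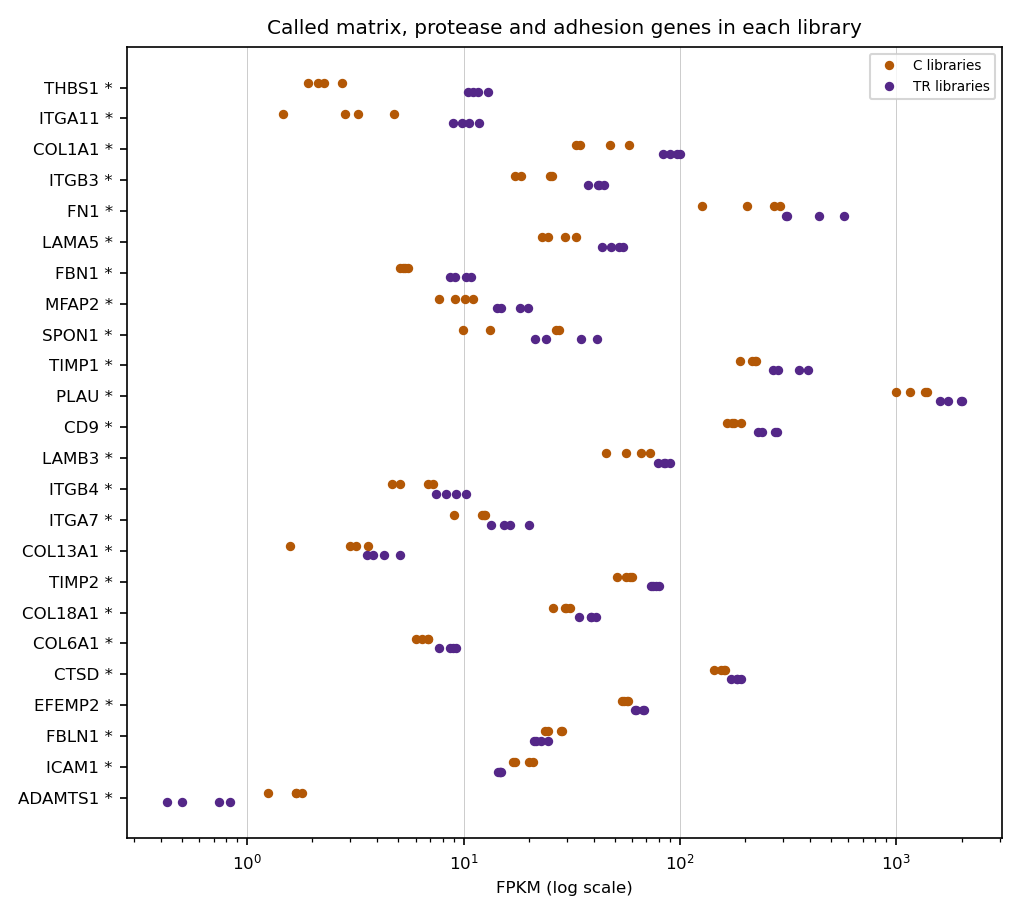
FPKM, on a log scale, of called members of the matrix, protease and adhesion lists in the 4 C libraries (brown) and the 4 TR libraries (purple), ordered by the difference. COL1A1 lies between 33.2 and 58.4 FPKM in C and between 83.7 and 100 in TR, and ADAMTS1 is the member with the largest fall.

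Receptors and proteases that act on the matrix formed lists of their own. Of 16 tested integrins and adhesion genes, 5 were higher and 1 lower. ITGA11, the collagen-binding integrin chain alpha 11, was 4.76, 3.25, 2.84 and 1.47 FPKM in C and 10.6, 11.8, 8.95 and 9.8 in TR (1.53, adjusted p = 0.00103). ITGB3, a chain of the vitronectin receptor, was 25.2, 17.4, 25.6 and 18.5 FPKM in C and 42.1, 37.6, 44.5 and 41.9 in TR (0.93, adjusted p = 0.000792). Both sets of TR libraries lay wholly above the C libraries. Of 15 tested proteases and inhibitors, 4 were higher and 1 lower, and 2 were higher without the treated pair of the scrambled line. The inhibitor TIMP1 was 215, 223, 225 and 189.5 FPKM in C and 356, 390.1, 268 and 284 in TR (0.59, adjusted p = 0.00356), and TIMP2 rose by less (0.43). ADAMTS1, a protease that cleaves proteoglycans, fell from 1.8, 1.25, 1.68 and 1.68 FPKM to 0.832, 0.427, 0.4998 and 0.742 (−0.68, adjusted p = 0.00663).

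Of 15 tested TGF-beta response genes, 9 were higher, 0 lower and 6 not called, with a median of 0.33. The count was 5 without the treated pair of either line, and 4 with no filter. The ligand TGFB1 was 50, 47.4, 54.8 and 50 FPKM in C and 61.3, 62, 65 and 66.7 in TR (0.33, adjusted p = 0.00546), whereas its relative TGFB2 was not called (−0.24, adjusted p = 0.226). LTBP3, which anchors the latent ligand in the matrix, was 197, 192, 204 and 158 FPKM in C and 321, 314, 299 and 291 in TR (0.71, adjusted p = 0.000831). ID1, an inhibitor of helix-loop-helix factors that BMP signals also raise, was 163, 167, 163 and 104 FPKM in C and 259, 238, 238 and 187 in TR (0.64, adjusted p = 0.00103). TR libraries were above C libraries for all of these but TGFB2. Of the inhibitory SMADs, SMAD6 was 0.62 (adjusted p = 0.0126, and 0.0601 without the treated pair of the scrambled line) and SMAD7 was not called (0.20, adjusted p = 0.197).

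COL1A1 is also a marker of fibroblasts, so the other markers of that cell type were read beside it. Of 10 listed, 7 were in the table and 1, COL1A1, was tested. COL3A1, DCN and POSTN were listed at 0 in all 8 libraries, and LUM, THY1 and FAP reached at most 0.611, 0.153 and 0.507 FPKM. The summed level of the list was 33.6 to 58.8 FPKM in C and 84.1 to 101 in TR, of which COL1A1 made up nearly all. Leukocyte markers summed to 10.1 to 12.8 FPKM in C and 5.71 to 7.34 in TR, mostly CD68 (−0.74, adjusted p = 0.00105). Of 11 in the table, 7, among them PTPRC, were under 0.1 FPKM in each of the 8 libraries. Endothelial markers summed to 1.59 to 2.18 FPKM in C and 2.68 to 3.396 in TR, with TIE1 under 0.1. The highest of them, ESAM, was called higher (0.64, adjusted p = 0.00854). Keratinocyte markers summed to 39.1 to 46.7 and 46.6 to 52.5, with KRT5 and KRT14 under 0.1. Their highest, SFN, was not called (0.07, adjusted p = 0.464), whereas KRT10 was called higher (0.39, adjusted p = 0.00801). Thyroid C cell markers summed to 1.09 to 1.53 and 1.2 to 2.81. The highest was SYP, with a mean of 0.5 FPKM, so none was tested. The part of such cells in the results was not tested. In bulk RNA, fewer cells of a type and less RNA per cell cannot be told apart.

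Among the genes listed here as YAP and TEAD targets, all called members were lower in TR. The list was chosen with earlier results of these data known, and THBS1, which rose, is not on it. Of 26 listed genes, 17 were in the table and all 17 were tested. Of these, 8 were lower, 0 higher and 9 not called, and the median was −0.33. F3, tissue factor, which starts blood clotting, was 36, 30.6, 39.7 and 54.1 FPKM in C and 21, 19.3, 18.3 and 21.8 in TR (−0.93, adjusted p = 0.00113). AXL, a receptor tyrosine kinase, was 270.4, 226, 268 and 284 FPKM in C and 176, 152, 187 and 204 in TR (−0.54, adjusted p = 0.000967). AJUBA, an adaptor that binds the LATS kinases, was 67.6, 60.6, 70 and 60.1 FPKM in C and 43.2, 40.2, 44.7 and 41.6 in TR (−0.59, adjusted p = 0.00081). No TR library reached a C library in any of the 3. CYR61, a secreted matricellular protein and a standard reporter of YAP activity, was 634, 679.8, 589 and 696 FPKM in C and 461, 517, 441 and 579.6 in TR (−0.38, adjusted p = 0.00581). TEAD1, the DNA-binding partner, was 71, 67.4, 63.6 and 65.7 FPKM in C and 46.1, 41.9, 60 and 57.4 in TR. Pairs of miR-139 cells differed by −0.61 and −0.67, those of scrambled cells by −0.08 and −0.19, a difference between lines that was not called (−0.51, adjusted p = 0.0852). The call over all pairs was lost without its untreated pair (adjusted p = 0.1096) or its treated pair (adjusted p = 0.0928). ANKRD1 (−0.33, adjusted p = 0.0901), another much used reporter, was not called.

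Genes of glycolysis and hypoxia moved in both directions. Of 27 tested members, 9 were higher, 4 lower and 14 not called, with a median of 0.13. The higher count was 4 without the treated pair of the scrambled line and 5 with quantile normalization. CA12, a membrane carbonic anhydrase, was 1.28, 1.3, 0.906 and 0.944 FPKM in C and 4.48, 5.07, 4.14 and 3.5 in TR (1.33, adjusted p = 0.000636). ADM, adrenomedullin, was 22.1, 22.7, 25.3 and 27.9 FPKM in C and 37.9, 38.4, 44.3 and 60.6 in TR (0.84, adjusted p = 0.000745). MIR210HG, the host transcript of the hypoxia-induced miR-210, is outside the list and was 1.57, 1.17, 1.47 and 1.42 FPKM in C and 4.68, 5.79, 4.81 and 4.84 in TR (1.32, adjusted p = 0.000792). P4HA1, a collagen prolyl hydroxylase, rose by 0.67, and BNIP3, a mitophagy receptor, by 0.52. LDHA and PKM, the last enzymes of glycolysis, were 0.46 and 0.48, with adjusted p of 0.0528 and 0.0628 without the treated pair of the scrambled line. MXI1, an antagonist of MYC that hypoxia induces, fell from 33.4, 29.5, 36.3 and 37 FPKM to 23.9, 21.6, 20.4 and 24 (−0.58, adjusted p = 0.00191). The glucose importer SLC2A1 was not called (−0.01, adjusted p = 0.944).

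Of 26 tested interferon-stimulated genes, 10 were higher, 0 lower and 16 not called, with a median of 0.18. Without the treated pair of the miR-139 line 4 were higher and 1 lower, and without that of the scrambled line 5 were higher. IFIT1, which binds foreign RNA caps, was 9.17, 5.1, 5.13 and 3.71 FPKM in C and 11.1, 9.14, 10.1 and 7.83 in TR (0.69, adjusted p = 0.00577). ISG20, an exonuclease, was 20.6, 22.8, 22 and 20.1 FPKM in C and 34.7, 33.8, 27 and 28.1 in TR (0.50, adjusted p = 0.00393). BST2, the virus tether tetherin, was 205, 180.5, 192 and 194 FPKM in C and 283, 249, 225 and 244 in TR (0.37, adjusted p = 0.00546). The IFIT1 libraries overlapped between tags, and those of ISG20 and BST2 did not. IRF9, a transcription factor of the interferon response, was not called (0.03), and MX1, an antiviral GTPase, lay on the other side (−0.46, adjusted p = 0.0526).

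Single genes of other stress programs were called as well. NQO1, a quinone reductase and standard target of NRF2, was 53.4, 55.1, 47.8 and 49.9 FPKM in C and 99.7, 97.4, 101 and 93.1 in TR (0.91, SE 0.06, adjusted p = 0.000305). Of its 15 tested list members, 5 were higher and 1 lower, with a median of 0.13, while HMOX1 (0.13) and SRXN1 (−0.06) were not called. SLC30A1, the zinc exporter that the metal sensor MTF1 induces, was 12.3, 12.6, 10.2 and 8.1 FPKM in C and 22.5, 23.3, 21 and 18.7 in TR (0.94, adjusted p = 0.000636). Of the 8 tested genes of that list, 2 were higher, and the metallothionein MT2A was not called (0.05). HSPH1, a large heat shock protein, was 40.4, 42.8, 32.6 and 36 FPKM in C and 64.2, 58.8, 59.1 and 57.6 in TR (0.65, adjusted p = 0.00105), and 4 of 12 heat shock genes were higher and 1 lower. Leaving out 1 pair gave 2 to 5 higher NRF2 members, 1 to 5 zinc members and 2 to 4 heat shock members, each lowest without the untreated pair of the miR-139 line, though for zinc and heat shock not there alone. Of 13 tested p53 targets, 3 were higher and 2 lower, beside 11.6% of all tested genes in each direction. The 2 lower ones were SESN2, which is also on the ATF4 list, and BBC3, both described above. TP53I3, an oxidoreductase, was 4.6, 4.39, 4.58 and 2.68 FPKM in C and 10.2, 7.39, 9.96 and 8.59 in TR (1.00, adjusted p = 0.00154).

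Outputs of the MAPK pathway split. Of 16 tested genes, 3 were higher and 4 lower, with a median of −0.10. The feedback inhibitor SPRY2 was 47.9, 48.3, 43.3 and 43.7 FPKM in C and 73, 75.8, 61.9 and 74.4 in TR (0.63, adjusted p = 0.000857), and the ERK phosphatase DUSP6 was 39.6, 30.6, 37.6 and 38.9 FPKM in C and 53.7, 55.7, 47.3 and 47.2 in TR (0.47, adjusted p = 0.00973). DUSP8, a phosphatase of the JNK and p38 kinases, fell from 1.65, 1.63, 2.01 and 2.99 FPKM to 0.714, 0.641, 0.89 and 0.454 (−0.86, adjusted p = 0.00856). Among 14 immediate early genes, 2 were higher (4 without the untreated pair of the scrambled line) and 3 lower. FOS rose from 9.35, 9.12, 11.1 and 8.66 FPKM to 13.5, 12.4, 16.9 and 15.2 (0.55, adjusted p = 0.0033), and ATF3, given above, fell. JUNB (0.31, adjusted p = 0.0464) was higher in 3 groups only. Its call was lost without any pair but the untreated one of the scrambled line (adjusted p = 0.12 to 0.168). SIK1 (−0.35, adjusted p = 0.0426) lost its call without any pair but the treated one of that line (adjusted p = 0.0905 to 0.164).

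Of 18 listed genes of thyroid identity, 13 were in the table and 4 reached the mean of 1 FPKM and were tested. PAX8, the transcription factor that specifies follicular cells, was 86.2, 92.1, 68.9 and 56 FPKM in C and 109, 133, 125 and 123 in TR (0.71, adjusted p = 0.00428). HHEX, a homeobox factor of the same lineage, was 24.8, 24.1, 24.1 and 23 FPKM in C and 35.7, 41.2, 33.8 and 38.2 in TR (0.61, adjusted p = 0.00121). TR was higher in every group for both. DUOX1 and DUOXA1, which make hydrogen peroxide for hormone synthesis, were not called (−0.05 and −0.15).

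Few genes of cell division were called. Of 27 tested mitosis genes 1 was higher and 0 lower. That gene was CCNB2, a cyclin of mitosis (0.20, adjusted p = 0.043), and it missed the threshold when any 1 pair was left out (adjusted p = 0.06304 to 0.161). Of 34 tested genes of DNA replication, 0 were higher and 3 lower. CDT1, which licenses replication origins, was 30.9, 34.6, 34.5 and 29.6 FPKM in C and 21.3, 24, 19.9 and 20.3 in TR (−0.58, adjusted p = 0.00132). Without the untreated pair of the scrambled line 10 replication genes were lower. Of the 3 lower genes, RRM1 lost its call without any 1 of the other pairs (adjusted p = 0.0788 to 0.192). RFC3 lost it without the treated pair of the scrambled line (adjusted p = 0.0535). Beside 11.6% of all tested genes called in each direction, 2 of 18 reported targets of miR-139-5p were higher and 3 lower. CXCR4, a chemokine receptor among them, was 8.85, 9.11, 8.25 and 4.89 FPKM in C and 18.7, 15.6, 12.5 and 16.7 in TR (0.96, adjusted p = 0.00418), whereas EIF4G2, a translation factor, was 0.02 (adjusted p = 0.805). Of the lipid lists, cholesterol synthesis had 3 higher and 2 lower of 15, and fatty acid synthesis 0 and 3 of 10. Without the untreated pair of the miR-139 line, 0 of the former were higher and 1 of the latter lower. The desaturase SCD was 318, 301, 332 and 331 FPKM in C and 231, 247, 255 and 279 in TR (−0.34, adjusted p = 0.00672).

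**Figure D3:**
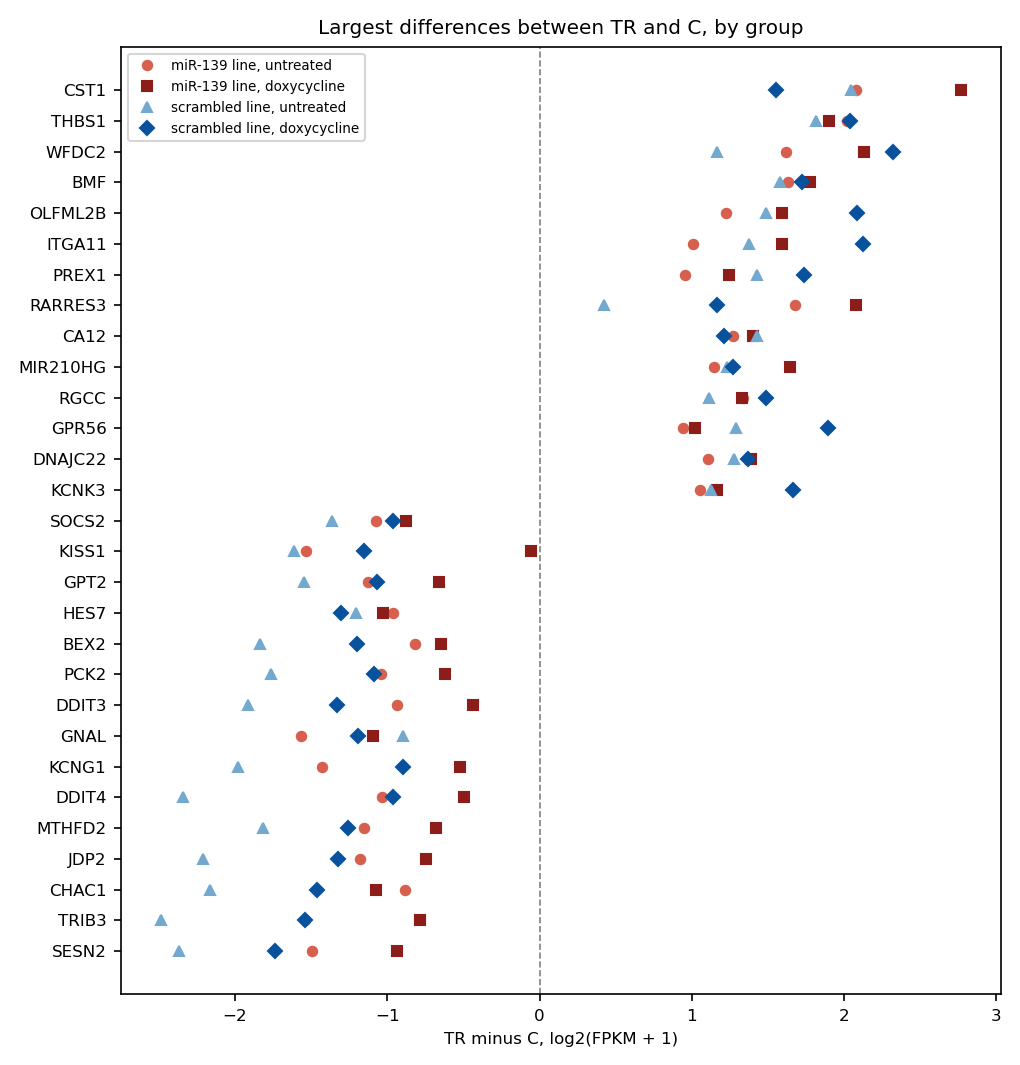
Difference TR minus C, on log2(FPKM + 1), in each of the 4 groups for 14 of the 15 called genes with the largest mean rise and the 15 with the largest mean fall. All points of a gene lie on one side of 0 because only genes with the same sign in all 4 groups were picked. KISS1 comes closest to 0, at −0.05 in treated cells of the miR-139 line.

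Of the 15 genes that rose most, CST1 led, followed by THBS1. CST1, the secreted protease inhibitor cystatin SN, was 0.221, 0.0956, 0 and 0.408 FPKM in C, where 1 library is listed at 0, and 4.15, 6.46, 3.12 and 3.13 in TR (2.11, SE 0.18, adjusted p = 0.000745). WFDC2, the secreted protein HE4, was 3.63, 1.84, 2.84 and 0.758 FPKM in C and 13.3, 11.5, 7.63 and 7.79 in TR (1.81, adjusted p = 0.000873). BMF, a death protein of the BH3-only kind, was 0.851, 0.576, 0.801 and 0.222 FPKM in C and 4.74, 4.41, 4.39 and 3.05 in TR (1.68, adjusted p = 0.000305). All were low in C, so that the scale understates their change. CST1 and BMF had means of 0.18 and 0.61 FPKM in C and passed the minimum of 1 FPKM only through the TR libraries. Others were cell surface and signalling genes: PREX1, a Rac exchange factor (1.34), GPR56, an adhesion receptor (1.29), and KCNK3, a potassium channel (1.25). RARRES3, a retinoid-induced growth inhibitor, was 4.27, 3.43, 5.57 and 3.96 FPKM in C and 15.9, 17.8, 7.82 and 10.1 in TR, with the smallest rise in untreated cells of the scrambled line (1.34, adjusted p = 0.00526). The remaining ones were RGCC, a regulator of the cell cycle (1.32), and DNAJC22 (1.28), a member of the J-domain family.

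Of the 15 genes that fell most, 7 belong to the ATF4 list, and most of these are described above. JDP2, a bZIP repressor of AP-1 sites, was 32.3, 17, 33.6 and 23.9 FPKM in C and 13.7, 9.72, 6.46 and 8.96 in TR (−1.36, adjusted p = 0.00259). SOCS2, a feedback inhibitor of growth hormone signalling, was 20.2, 18.1, 22.4 and 23.1 FPKM in C and 9.06, 9.4, 8.12 and 11.4 in TR (−1.07, SE 0.09, adjusted p = 0.000693). GNAL, a stimulatory G protein, was 6.78, 6.37, 7.13 and 7.61 FPKM in C and 1.62, 2.45, 3.37 and 2.77 in TR (−1.19, adjusted p = 0.000973). The libraries were apart for all 3, and SOCS2 and GNAL fell in each group by 0.88 or more. HES7, a repressor of the Notch pathway (−1.12), KCNG1, a potassium channel subunit (−1.21), and BEX2 (−1.12) fell as well. KISS1, the metastasis suppressor kisspeptin, was 3.8, 2.36, 5.89 and 4.92 FPKM in C and 0.659, 2.23, 1.25 and 1.67 in TR (−1.09, adjusted p = 0.0135). Its call was lost without the untreated pair of the miR-139 line (adjusted p = 0.0622) or the treated pair of the scrambled line (adjusted p = 0.0518).

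Whether the difference between tags itself differed between the lines was tested on the 4 differences, with 1 residual degree of freedom per gene before moderation. limma called 12 of 9840 genes (0.122%), 9 with a larger value in the miR-139 line and 3 with a smaller one, beside 1823 (18.5%) at an unadjusted p under 0.05. TXNIP, an inhibitor of glucose uptake, was 73.6, 42, 94.3 and 63.3 FPKM in C and 75.9, 75.7, 46.1 and 58.3 in TR. TR exceeded C in treated cells of the miR-139 line, lay below it in untreated cells of the scrambled line and was close to it in the other groups (difference between lines 1.01, adjusted p = 0.0212). DDIT3 and TRIB3 of the ATF4 list fell more in the scrambled line (a difference between lines of 0.94 and 0.85, adjusted p = 0.02398 and 0.0445), and so did XBP1 (0.69, adjusted p = 0.0466). In the C libraries the miR-139 line had less of each of these 4 genes than the scrambled line at the same treatment.

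**Figure D4:**
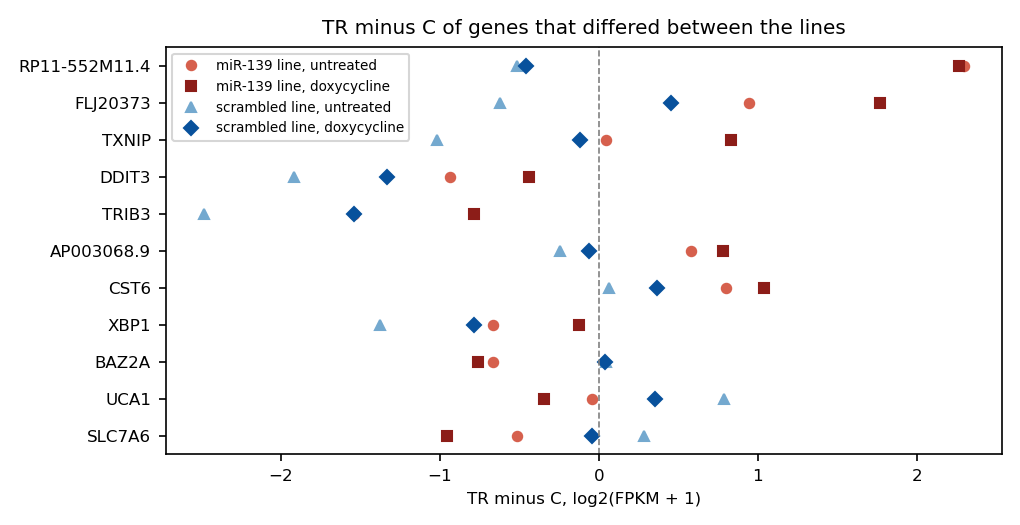
Difference TR minus C, on log2(FPKM + 1), in each of the 4 groups for 11 of the 12 genes called as different between the lines. Points of the miR-139 line (red) and of the scrambled line (blue) are apart for every gene shown but TRIB3. For TRIB3 the untreated pair of the miR-139 line and the treated pair of the scrambled line both lie at −1.54. The widest distance is that of RP11-552M11.4, a gene of low values. It had 0.000106 and 0.241 FPKM in the C libraries of the miR-139 line and at most 4.97 in any library.

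BAZ2A, a subunit of a complex that silences ribosomal genes, was 44.4, 47.3, 38.6 and 37.4 FPKM in C and 27.7, 27.5, 39.9 and 38.6 in TR, lower in TR in the miR-139 line and level in the scrambled line (−0.75, adjusted p = 0.0466). SLC7A6, a carrier of basic and neutral amino acids, was 28.4, 30.7, 24.4 and 26.4 FPKM in C and 19.6, 15.4, 30 and 25.6 in TR (−0.85, adjusted p = 0.0466). CST6, the protease inhibitor cystatin M, was 70, 66.8, 91.2 and 66.3 FPKM in C and 122, 139, 95.3 and 85.8 in TR (0.70, adjusted p = 0.0466). The list of 12 held with some settings only: 0 genes were called with no filter or without a variance trend, and 1083 after rescaling without mitochondrially encoded genes, of which 158 were larger and 925 smaller in the miR-139 line. That scaling put the median of all genes at −0.15. Upper quartile scaling called 5 larger and 0 smaller, and quantile normalization 92 and 61.

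In the miR-139 line the difference between tags went with the length of the transcript. The 8655 tested genes with a length in GENCODE 29 (longest annotated transcript, 88.0%) were split by length into 4 parts of nearly equal size. The part with the shortest transcripts had a median difference of 0.15 and 0.09 in untreated and treated cells of the miR-139 line, against −0.04 and 0.01 in the scrambled line. The part with the longest had −0.15 and −0.10, against 0.03 and −0.04. Calls over all 4 groups were uneven by length as well. The part with the shortest transcripts had 359 called higher and 179 lower, and the part with the longest had 158 higher and 371 lower. Medians of the short, abundant transcripts of translation and respiration had a similar order over the groups. The 54 tested cytosolic ribosomal protein genes had medians of 0.33, 0.24, −0.24 and 0.00 in the 4 groups, with 2 higher and 0 lower. The 51 nuclear genes of oxidative phosphorylation had 0.28, 0.17, −0.10 and 0.05, with 4 higher and 2 lower. Without the untreated pair of the scrambled line 5 and 15 members of these lists were higher. Leaving out the untreated pair of the miR-139 line instead, RPS26, NDUFB10, ATP5E and ATP5L lost their calls (adjusted p = 0.1005, 0.0503, 0.0569 and 0.107). MALAT1, a long RNA kept in the nucleus, was 209, 223, 211 and 216 FPKM in C and 403, 385, 214 and 263 in TR. Its difference between lines of 0.71 was not called (adjusted p = 0.0837). Over all pairs it rose (0.51, adjusted p = 0.0303, and 0.0557 to 0.115 without any pair but the untreated one of the scrambled line). With the trend on length removed, an alternative chosen after seeing the data, 2464 genes were called between the tags, 107 by line and 20 by treatment. Of the 2464, 1968 were also called with the trend left in.

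Whether the difference between tags changed with doxycycline was tested in the same way. limma called 0 of 9840 genes (0%), with 731 (7.43%) at an unadjusted p under 0.05. Other settings called 0 to 86. The smallest p-values belonged to HYPK, a chaperone partner of the N-terminal acetyltransferase (−1.59), to the clone-named CTD-2545G14.7 (3.04), to TXNIP (0.85) and to TRIB3 (0.85), with adjusted p of 0.0501 for the first 3 and 0.07199 for TRIB3. TRIB3 fell by 0.78 with and 1.54 without doxycycline in the miR-139 line, and by 1.54 and 2.49 in the scrambled line.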

How the data were processed

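The builds GRCh37 and hg19 are named per the submitters' processing notes, as are the aligners TopHat, TopHat2 2.0.10, STAR 2.5 and Bowtie 1.0.0, the quantifiers HTSeq and Cufflinks, and the tools SAMtools (1.3.1 and 0.1.19) and FastQC 0.11.0. Which of them made the expression values, and with which annotation, is not given in the sources used here. The authors deposited 1 table of FPKM values, normalized to transcript length and library total. Genes that take up more of a library thus lower the values of the rest. Column names give group and tag, not the replicate letter of the titles, so columns were assigned to groups only. Of 28 pairs of the 8 libraries, 0 were identical. Some genes, mainly of chromosomes 3 to 9, were not analysed here, and a few that the naming rule picks are not reported here.

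limma 3.58.1 (R 4.3.3) was fitted to log2(FPKM + 1) of the 8 libraries with the group as a block and variances moderated with a trend. The tests were two-sided with Benjamini-Hochberg adjustment over all 9840 genes, and were tested on simulated data. The by-line and by-doxycycline tests used the 4 differences TR minus C. The comparison, the gene lists and the tests were chosen with earlier results of these data known, so list counts and medians are descriptions and no set test was run. Named genes are the 15 largest rises and 15 largest falls among called genes with the same sign in all 4 groups, without clone-type names. To these come up to 4 leading members of each list and every called member where 6 or fewer were called, the 4 smallest p-values of each difference test, HNRNPF, EIF4G2 and the top marker of each other cell type. Further list members were named for their role after their values were seen. Lengths came from GENCODE 29 (8655 genes matched) and promoters from RefSeq (7013 tested genes matched), both of build GRCh38 and matched by symbol.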

Additional observations from a re-analysis of the deposited data

Results flagged for a closer look

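Among 230 named genes and list medians checked for a group that lies far from the other 3, 6 passed the 95% critical value of Dixon's ratio, fewer than the about 1 in 20 that chance gives. The ratio was 0.874 for ADM, 0.952 for CDT1, 0.843 for CTSD, 0.938 for DUSP8, 0.866 for KRT80 and 0.879 for the median of the interferon-stimulated genes. In ADM, DUSP8 and KRT80 the treated pair of the scrambled line differed most between TR and C. For CDT1 it was the untreated pair of that line, in which the aspartic protease gene CTSD differed least, and for the interferon list the untreated pair of the miR-139 line, which alone had a negative median (−0.07).

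The difference between tags differed between the lines in 12 genes by the test of that difference itself, of which 11 are given here. It was larger in the miR-139 line by 2.77 for the clone-named RP11-552M11.4, by 1.44 for FLJ20373, by 1.01 for TXNIP, by 0.94 for DDIT3, by 0.85 for TRIB3, by 0.83 for the clone-named AP003068.9, by 0.70 for CST6 and by 0.69 for XBP1. It was smaller by −0.85 for SLC7A6, by −0.76 for UCA1 and by −0.75 for BAZ2A.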

How the results depend on the processing

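With the group left out as a replicate block, so that C and TR libraries were no longer paired within groups, 2575 genes were called between the tags instead of 2288, and 2163 of these were shared. The count was 1790 to 2318 with other scalings, 2258 with a pseudocount of 0.1, 2050 for genes of at least 5 FPKM, 1841 without a variance trend, 1644 with all 12 libraries in the fit and 780 with no filter. Without 1 pair of libraries it was 951 to 2311. With the trend on transcript length removed, which was chosen after seeing the data, it was 2464. The count by line was 12, and 16, 221, 0, 5, 153, 1083, 0 and 107 with the smaller pseudocount, the higher minimum, no filter, upper quartile scaling, quantile normalization, rescaling without mitochondrially encoded genes, no variance trend and the length trend removed. That by doxycycline was 0, and 5, 11, 0, 0, 16, 86, 0 and 20 in the same order.

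Of 200 named genes, 169 were called, and 92 of these missed the threshold with no filter, where more genes were tested. Without the untreated or treated pair of the miR-139 line 48 and 38 missed it, and without the untreated or treated pair of the scrambled line 11 and 56. The sign turned in 5 genes, none of them called. Over the fits that left out 1 pair, DUOX1 spanned −0.17 to 0.19, TXNIP −0.36 to 0.25, HYPK −0.48 to 0.097 (0.05 without the treated pair of the scrambled line) and CTD-2545G14.7 −0.068 to 1.67. EIF4G2 was −0.043 with quantile normalization and −0.013 without mitochondrially encoded genes. The cause of these shifts was not tested. The 4 pairs leave 3 residual degrees of freedom, and the unknown depth limits what can be said of genes near 1 FPKM.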

Other observations

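Further lists are given here by their counts, beside 11.6% of all tested genes higher and 11.6% lower. Of 20 tested genes of lysosomes and autophagy, 5 were higher in TR (2 without the treated pair of the scrambled line) and 2 lower, with a median of 0.08. The cholesterol carriers of that list went opposite ways: NPC2, the soluble one, was 378, 408, 425 and 365 FPKM in C and 595, 616, 468 and 506 in TR (0.46, adjusted p = 0.00884), and NPC1, which sits in the membrane, was 27.2, 23.2, 25.2 and 25.4 FPKM in C and 17.2, 16.3, 17.6 and 19.2 in TR (−0.50, adjusted p = 0.00218). Neither overlapped between tags.

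Of 15 tested actin and serum response genes, 4 were higher and 2 lower, with a median of 0.12, and 1 to 4 were higher when a pair was left out. TAGLN2, an actin-binding protein, was 237, 243, 223 and 198 FPKM in C and 313, 307, 277 and 270.5 in TR (0.37, adjusted p = 0.00347). Of 11 tested genes of Wnt and Notch output, 0 were higher and 3 lower, with a median of −0.16. JAG2, a Notch ligand, fell from 8.94, 12.4, 11.9 and 13.3 FPKM to 7.12, 7.7, 6.34 and 8.79 (−0.57, adjusted p = 0.00562). NF-kB and cytokine genes had 2 higher and 2 lower of 14, EMT regulators and intermediate filaments 2 and 1 of 12, nuclear-retained RNAs 2 and 1 of 7, mitochondrially encoded mRNAs 1 and 0 of 13, and replication-dependent histones 0 and 0 of 2. Without 1 pair these small counts ranged from 0 to 3. The median of the EMT list was 0.04, and −0.01 with quantile normalization. Among the single values per library, the share of mitochondrially encoded FPKM was 11.5% ± 0.64 in C and 11.8% ± 0.36 in TR (SD, n = 4, p = 0.5 in an exact two-sided sign-flip permutation test, which with 4 pairs cannot reach the threshold, its smallest p being 1 in 8).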
